A study of Homo sapiens with 2 samples.

Results

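miR-422a, miR-378a-3p and miR-378a-5p are 3 mature microRNAs (miRNAs), of which the first and second are near-identical in sequence while both miR-378a strands are cut from 1 hairpin. They are 3 of the 1001 rows of an array table. They were taken by their miRBase accessions (MIMAT0001339, MIMAT0000732 and MIMAT0000731, in that order). miR-422a was picked because its signal after Y27632 had stood above that of probes of like brightness on these same arrays, so its own ratio is given as a description. The miR-378a arms were picked by relation to it. Levels were measured in Huh7, an established human hepatocellular carcinoma line, with 1 single-colour array from cells given 10 µM Y27632 for 12 hours and 1 array from cells labelled as control. Y27632 is a small-molecule kinase inhibitor. The text on the treatment is attached to both samples, so the control's group rests on its title and the series design, and every ratio below rests on that assignment. The control's title states neither a vehicle nor a time of harvest, so a difference in either cannot be told apart from the treatment. With 1 array per condition no value has a replicate error and no test was possible.

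A miRNA guides a silencing complex to messenger RNAs that pair with its seed, the bases near its 5′ end, so miRNAs with the same seed can share targets. A hairpin precursor can give a mature strand from either of its arms, and the arms carry different seeds. The miR-378a hairpin lies in an intron of PPARGC1B, which encodes a coactivator of nuclear receptors in mitochondrial metabolism, and mice without both of its strands resist diet-induced obesity. miR-422a has been described in human hepatocytes as a repressor of CYP7A1, the rate-limiting enzyme of bile acid synthesis. miR-378a-5p has been described as a repressor of metabolic regulators in human breast cancer cells.

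The mature sequences show which of the 3 could share targets. They were read 5′ to 3′ from RefSeq (GRCh38.p14), which held all 3 of the 3 names, and capitals mark the seed (bases 2 to 8).
miR-422a: aCUGGACUuagggucagaaggc
miR-378a-3p: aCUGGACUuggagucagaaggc
miR-378a-5p: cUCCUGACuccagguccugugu
miR-422a and miR-378a-3p carried the same seed, and miR-378a-5p a different one. Among 2370 mature human names in that table, 7 had the seed of miR-422a, including miR-422a itself, and 1, miR-378a-5p itself, had the seed of miR-378a-5p.

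Aligned over all 22 bases, miR-422a and miR-378a-3p matched at 20 and differed at 2. Counted from 1 at the 5′ end, with the base of miR-378a-3p first, the differences were G10A and A12G. Both lie outside the seed and are in capitals here.
miR-422a: acuggacuuAgGgucagaaggc
miR-378a-3p: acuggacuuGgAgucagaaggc
No other name in the table was as close to miR-422a: miR-378a-3p was at an edit distance of 2 (the number of single-base changes, insertions or deletions), miR-378i at 3 and miR-378h at 4. miR-378a-5p was at 13. The G and C content was 54.5% in both near-identical miRNAs and 59.1% in miR-378a-5p.

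The other 5 names with this seed among those 2370 RefSeq names show how they vary behind a constant 5′ end, with the seed again in capitals.
miR-378b: aCUGGACUuggaggcagaa
miR-378c: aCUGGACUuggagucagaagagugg
miR-378f: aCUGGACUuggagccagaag
miR-378h: aCUGGACUuggugucagaugg
miR-378i: aCUGGACUaggagucagaagg
They were 19 to 25 bases long, and their edit distances from miR-422a ran from 3 to 6. The array table does not pair accessions with names, so no level is given for these 5.

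The precursors place the near-identical strands on opposite arms, which is why both hairpins are shown, with the mature strands in capitals. MIR422A spans chr15:63870930-63871019 on the minus strand and MIR378A spans chr5:149732825-149732890 on the plus strand (GRCh38.p14, RefSeq).
MIR422A: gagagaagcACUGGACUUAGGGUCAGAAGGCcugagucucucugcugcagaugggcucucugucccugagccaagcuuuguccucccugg
MIR378A: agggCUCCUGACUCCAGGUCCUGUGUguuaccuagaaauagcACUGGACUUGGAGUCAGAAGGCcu
miR-422a took bases 10 to 31 of a 90-base hairpin, in its 5′ arm. miR-378a-3p took bases 43 to 64 of a 66-base hairpin, in its 3′ arm, and miR-378a-5p bases 5 to 26, with 16 bases between them. In the genome, miR-422a lies at chr15:63870989-63871010, miR-378a-3p at chr5:149732867-149732888 and miR-378a-5p at chr5:149732829-149732850. MIR378A lies inside the span of PPARGC1B. MIR422A overlaps no other gene of the RefSeq gene table, and its protein-coding neighbours are HERC1 and DAPK2. The near-identical miRNAs thus come from separate loci on different chromosomes.

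The array values are deposited intensities on what was taken to be a linear scale, given to 1 decimal. An intensity was listed for 614 probes on the Y27632 array and 619 on the control array, from 2.7 to 43198.2 and from 2.3 to 45829.6. Both arrays listed 519 probes, including all 3 miRNAs. Over these 519 the median log2 ratio of Y27632 over control was 0.00. The 260 probes of the brighter 50% had a geometric mean intensity of at least 7.57. In that set a rise of 1.5-fold or more on the Y27632 array was seen for 3 probes (1.15%) and a fall of that size for 6 (2.31%). Among the 259 dimmer probes these counts were 43 (16.6%) and 22 (8.49%). miR-422a and miR-378a-3p were in the brighter 50% and miR-378a-5p in the dimmer. None of the 3 reached 1.5-fold in either direction in the values as deposited.

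miR-422a read 133.6 on the Y27632 array and 91.5 on the control array. That is a difference of 42.1 intensity units, a ratio of 1.46 and a log2 ratio of 0.55. Rounding of the deposited values to 1 decimal allows a log2 ratio between 0.54 and 0.55. The probe ranked 53rd in brightness of the 614 on the Y27632 array and 64th of the 619 on the control array. Among the 20 probes nearest to it in control rank, which read 77.9 to 128.4 on the control array, the change in rank ran from 15 places lost to 6 places gained, against 11 places gained by miR-422a. This shift restates in ranks the ratio by which miR-422a was picked.

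**Figure D1:**
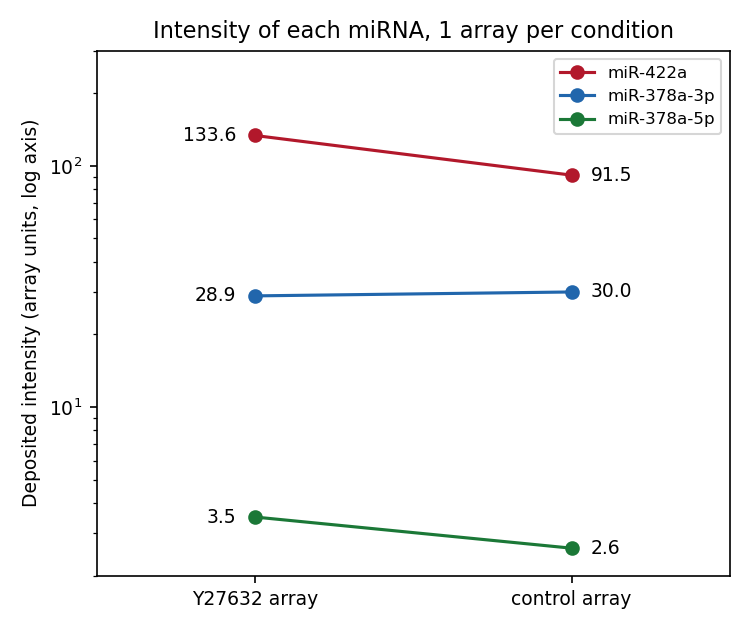
Deposited intensity of miR-422a, miR-378a-3p and miR-378a-5p (array units, log axis) on the Y27632 array and on the control array, with 1 point per array and lines joining the same probe. miR-422a read 133.6 and 91.5, miR-378a-3p 28.9 and 30.0, and miR-378a-5p 3.5 and 2.6. Brightness also depends on the probe, so the heights give no order of abundance.

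miR-378a-3p, the near-identical relative, read 28.9 on the Y27632 array and 30.0 on the control array. The ratio was 0.963 and the log2 ratio −0.05, a value whose sign turned after a lowess correction (0.00090) and after scaling to the 75th percentile (0.07). It ranked 122nd of the 614 on the Y27632 array and 120th of the 619 on the control array, and of the 20 probes nearest in control rank, 10 lost no more places than it did or gained places. The 1 other probe at 30.0 on the control array read 24.5 on the Y27632 array. miR-378a-3p therefore lay close to equality, and 1 other probe gives no scale for the size of its shift.

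The question for this pair was whether the near-identical relative moved with miR-422a, and the values on these 2 arrays are given as a description. The log2 ratio of miR-422a minus that of miR-378a-3p was 0.60, so the ratio of miR-422a was 1.52 times that of miR-378a-3p. Nearly all of this is the 0.55 of miR-422a itself, the value it was picked for, so a gap from a probe near equality was built into the choice. The difference of log2 ratios was between 0.54 and 0.62 under every normalization tried. An overall scale between the arrays cancels in it, but the spread between cultures does not enter it, and whether it exceeds that spread was not tested. The probe sequences of the array were not used here, and how far either probe reads the other miRNA was not tested.

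miR-378a-5p, the other arm of the miR-378a hairpin, read 3.5 on the Y27632 array and 2.6 on the control array. The log2 ratio was 0.43, or 0.38 to 0.48 within the rounding of the values, and the 2 readings were 0.9 intensity units apart. Both readings were close to the lowest values listed, 2.7 on the Y27632 array and 2.3 on the control array. Only 97 of the 614 listed probes were dimmer on the Y27632 array and 28 of the 619 on the control array. With the Y27632 values lowered by 0.4, the difference between those lowest values, its log2 ratio was 0.25. The 8 other probes that were listed on both arrays and read 2.6 on the control array read 3.0 to 6.5 on the Y27632 array, with a median of 3.65. Of the 20 probes nearest to it in control rank, 13 gained at least as many places as the 64 it gained. miR-378a-5p was thus just below the middle of the probes that shared its control reading. Those probes, and the 20 nearest in control rank, were chosen on a control reading near the lowest listed. They also had to be listed on both arrays. That choice favours higher readings and gains in rank on the Y27632 array.

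The arms of the one hairpin differed by 0.48 in log2 ratio as deposited (miR-378a-5p minus miR-378a-3p), and by 0.21 to 0.33 after quantile normalization, a lowess correction, a pseudocount or the lowering by 0.4. miR-422a minus miR-378a-5p was 0.12 as deposited and up to 0.37 after the lowess correction. With readings this close to the lowest listed, miR-378a-5p was not shown to be above background, so no order among the 3 is read from these differences.

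**Figure D2:**
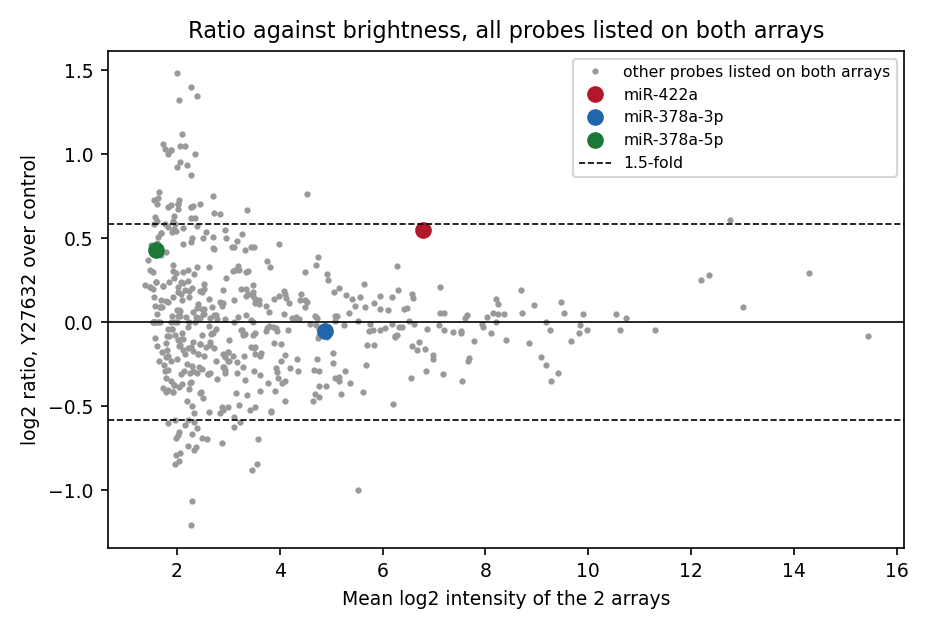
log2 ratio of Y27632 over control against mean log2 intensity of the 2 arrays for the 519 probes listed on both, with dashed lines at 1.5-fold. miR-422a, at 0.55, the value it was picked for, sits just inside the upper line in a region where ratios were narrow. miR-378a-3p, at −0.05, sits in the middle of its band. miR-378a-5p, at 0.43, sits among the dimmest probes, where ratios were wide.

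Because dim probes had wider ratios, each miRNA was set beside the 100 other probes nearest to it in mean log2 intensity. Distances are given in robust standard deviations (SDs), the scaled median absolute deviation of those 100 ratios, which mixes array noise with any response. The neighbours of miR-422a had geometric mean intensities from 26.9 to 420, a median log2 ratio of −0.03 and a robust SD of 0.16. Their highest log2 ratio was 0.39, so 0 of the 100 reached that of miR-422a, which lay 3.58 robust SDs above their median. This is the measure by which miR-422a was picked. With the 200 nearest probes, 1 was at or above it and the distance was 2.61.

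The neighbours of miR-378a-3p (geometric means from 13.3 to 62.1) had a median log2 ratio of −0.03 and a robust SD of 0.27. miR-378a-3p lay −0.08 robust SDs from that median, and 56 of the 100 had a ratio at least as high. Near miR-378a-5p (geometric means from 2.59 to 3.999) the median log2 ratio was itself 0.13, with a robust SD of 0.49. miR-378a-5p lay 0.62 robust SDs above it, and 29 of the 100 had a ratio at least as high. The place of miR-422a above its neighbours was the reason it was picked, so it is not set against the places of the miR-378a strands.

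**Figure D3:**
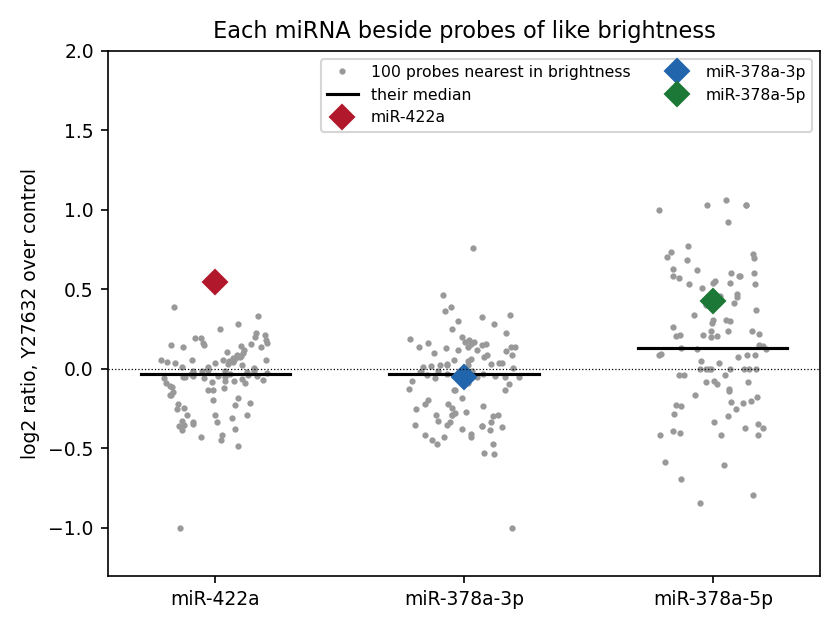
log2 ratio of Y27632 over control for each miRNA (diamond) beside the 100 probes nearest to it in brightness (grey points, spread sideways for legibility) and their median (bar). miR-422a lies above all 100 of its neighbours, whose highest was 0.39. It was picked by this measure, so its place is not set against those of the miR-378a strands. miR-378a-3p lies near its neighbours' median and miR-378a-5p inside a wide band.

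Within the brighter 50%, the log2 ratio of miR-422a ranked 5th from the top of 260, which restates the ratio by which it was picked. The 4 probes above miR-422a read 30.2, 13.0, 8474.8 and 9.2 on the Y27632 array, and 17.8, 8.2, 5564.3 and 6.3 on the control array. The last of them had the same ratio as miR-422a to 3 digits (1.46). The next below miR-422a read 11.5 on the Y27632 array and 8.0 on the control array, a ratio of 1.44. Apart from 1 very bright probe, the probes with ratios this high were therefore much dimmer than miR-422a. Within the brightest 25% (130 probes) miR-422a ranked 2nd and miR-378a-3p 79th. Over all 519 probes listed on both arrays, dim ones included, miR-422a ranked 52nd, miR-378a-5p 78th and miR-378a-3p 303rd.

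The probes most like each miRNA in level were taken as the 3 nearest by distance in log2 intensity over the 2 arrays. Those nearest to miR-422a read 100.7, 100.4 and 114.6 on the Y27632 array and 91.1, 89.5 and 117.7 on the control array, with log2 ratios of 0.14, 0.17 and −0.04. Their distances were 0.41, 0.41 and 0.43, so no probe lay close to miR-422a. For miR-378a-3p the nearest read 29.4, 26.6 and 26.9 on the Y27632 array and 31.2, 28.1 and 27.7 on the control array, at distances of 0.06, 0.15 and 0.15. For miR-378a-5p they read 3.6, 3.7 and 3.7 on the Y27632 array and 2.6, 2.6 and 2.7 on the control array, at distances of 0.04, 0.08 and 0.10. A short distance over both arrays fixes a like ratio, and miR-422a was picked for a ratio above that of such probes, so these values describe levels and say nothing more of the ratios.

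The log2 ratio of miR-422a, for which it was picked, ran from 0.52 after quantile normalization to 0.67 after scaling to the 75th percentile. Across the settings the median log2 ratio of all 519 probes ran only from −0.06 to 0.12. The sign of a value of 0.55 could therefore hardly turn, and its staying positive is no support for it. Scaling to the 75th percentile gave the median of 0.12, and with it miR-422a passed 1.5-fold, which it did in no other setting. After the lowess correction its log2 ratio was 0.584, almost at 1.5-fold, so its side of that line says little. The log2 ratio of miR-378a-3p stayed between −0.07 and 0.07, and that of miR-378a-5p between 0.21 and 0.55.

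**Figure D4:**
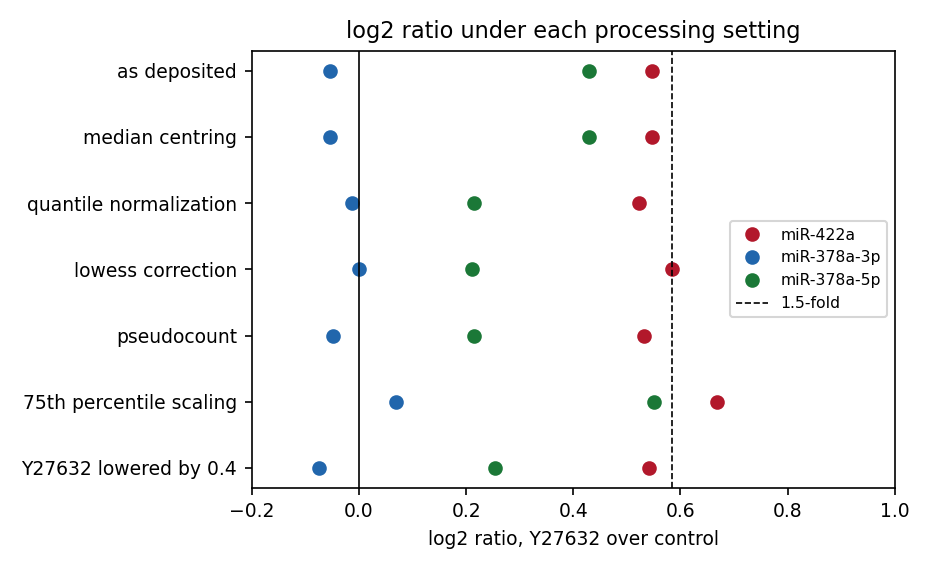
log2 ratio of Y27632 over control for the 3 miRNAs (points) under each processing setting (rows), with a dashed line at 1.5-fold. miR-422a stays between 0.52 and 0.67, miR-378a-3p between −0.07 and 0.07, and miR-378a-5p between 0.21 and 0.55.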

How the data were processed

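Hy5-labelled total RNA was hybridised to single-colour miRNA arrays, per the labels' protocols. The values deposited by the authors are intensities, 1 per probe and array. No source used here states their background correction, normalization, detection limit or probe sequences, and the linear scale was inferred from the range. The number of arrays limits the precision.

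Ratios are log2 of Y27632 over control for probes listed on both arrays, with no pseudocount. The miRNAs, lists and measures were chosen with earlier results of these data known. The probes planned for description were the 3 miRNAs, their seed relatives, the 3 probes nearest to each in level, and the 3 nearest to miR-422a in sequence. Array levels of the other seed relatives and of other probes near in sequence could not be given. Names follow the rule that picked the accessions. The reference tables held 0 lines with a miRBase accession, so seed relatives, the metabolic list and the cell type markers (hepatocyte markers of Huh7 included) were not evaluated. Alternatives were median centring, quantile normalization, lowess (fraction 0.4), a pseudocount of 3 (mean 10th percentile), 50 or 200 neighbours, and, added after seeing the data, 75th percentile scaling and lowering Y27632 values by 0.4. Python 3.11.15, numpy 2.4.6, pandas 2.3.3, statsmodels 0.14.6 and matplotlib 3.10.9 were used.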

Additional observations from a re-analysis of the deposited data

How the results depend on the processing

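For the 3 miRNAs, 45 values of log2 ratio, distance from probes of like brightness and difference between members were recomputed, and 0 moved by as much as a set bound. For a log2 ratio the bound was the robust SD of probes of like brightness, and for a difference the SDs of both probes combined. For a distance it was 1 robust SD. These bounds were wide. For the log2 ratio of miR-378a-5p the bound was 0.49, more than the ratio itself at 0.43, so a fall to 0.21 stayed within it. Median centring left every log2 ratio as it was, since the median was already 0.00. Scaling to the 75th percentile cancels in the differences. The count of 0 is therefore no measure of stability. The distance of miR-422a ran from 2.61 robust SDs with 200 neighbours to 4.04 with 50. It was 3.58 with 100, so the fall with 200 only just stayed within the bound. The background of 3 probes higher and 6 lower past 1.5-fold in the brighter 50% depended more on the setting. It was 46 higher and 28 lower with no filter on dim probes, 1 and 1 in the brightest 25%, 0 and 1 at 2-fold, and 8 and 3 after 75th percentile scaling. With the pseudocount 3 were lower, and with the Y27632 values lowered by 0.4 there were 10. Differences over pairs of arms or seed relatives on the array were not run, because the table gives accessions without names. Leaving out a replicate was not possible. No paired analysis was possible because there is 1 array for each condition. Low intensity limits miR-378a-5p most, and no background signal was at hand to set it against.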
